A study of Mus musculus with 9 samples.

Results

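The 36 genes described here encode aminoacyl-tRNA synthetases, the enzymes that join each amino acid to its transfer RNA. They were found by their symbols among the 55335 entries of each deposited library. Symbols that end in ars2 (16 genes) stand for enzymes that act in mitochondria, and the other 20 genes encode enzymes that act mainly in the cytosol. Of the 36 genes, 34 averaged 1 FPKM or more across the 9 libraries and entered the tests, 20 cytosolic and 14 mitochondrial. FPKM is the number of fragments per kilobase of a gene, set relative to the depth of its library. *Aars2* and *Pars2* did not reach this mean and are given by their values only. *Vars2* had a control mean of 0.493 FPKM and reached it through its H3.3-KD libraries.

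RNA was measured in pools of mouse embryos at the 8-cell stage, obtained by in vitro fertilization of ICR oocytes, injected with siRNA as zygotes and then cultured. Control embryos received nontargeting siRNA, MFN1-KD embryos siRNA against *Mfn1*, which encodes a GTPase of mitochondrial outer membrane fusion, and H3.3-KD embryos siRNA against *H3f3a* and *H3f3b*, which both encode the histone variant H3.3. Each group has 3 libraries, and all embryos, controls included, were injected and cultured. The labels give 5 to 10 embryos for a library and the methods 10 for a group, so the number of embryos in a library is uncertain, and p-values measure the spread between these libraries only.

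A synthetase recognizes 1 kind of amino acid and the matching transfer RNAs, and the charged transfer RNA then carries the amino acid to the ribosome. Cytosol and mitochondria translate separately, and most amino acids have a separate nuclear gene for the mitochondrial enzyme. *Gars* and *Kars* each supply both compartments, *Eprs* charges glutamate and proline in 1 protein, and *Farsa* and *Farsb* encode the subunits of 1 phenylalanine enzyme. The products of *Eprs*, *Iars*, *Lars*, *Mars*, *Qars*, *Rars*, *Kars* and *Dars* assemble into the multisynthetase complex on the scaffold proteins encoded by *Aimp1*, *Aimp2* and *Eef1e1*. In cells short of amino acids or under stress of the endoplasmic reticulum, the transcription factor ATF4 is known to raise many cytosolic synthetase genes.

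ATF4 and C/EBP proteins bind a composite element, TGATGNAA, near the start of several of these genes, so the 250 bases before each RefSeq start (GRCm38.p6) were searched for it on both strands. Promoters were matched for 13 cytosolic and 14 mitochondrial genes. The element was present for 3 of the 13 cytosolic genes (23.1%), among them *Gars* and *Tars*, and for 0 of the 14 mitochondrial ones. Counted by gene in the same way, 3.91% of all 27025 genes hold it, and 3.45% of all 32851 promoters do. The *Gars* and *Tars* promoters are shown because they carry the element. *Gars* is among the genes called higher in H3.3-KD embryos by limma-trend, close to the threshold (log2 fold change 0.84, adjusted p = 0.0441). *Tars* did not pass there (0.24, adjusted p = 0.731), and its groups overlapped. Capitals mark the element, which lies on the strand opposite to the gene in each, and bases that GENCODE M21 places in an exon are left out. In *Gars* (chr6:55037751-55038000, plus strand) it lies 30 bases before the start, and in *Tars* (chr15:11399666-11399908, minus strand) 15 bases before it.
Gars: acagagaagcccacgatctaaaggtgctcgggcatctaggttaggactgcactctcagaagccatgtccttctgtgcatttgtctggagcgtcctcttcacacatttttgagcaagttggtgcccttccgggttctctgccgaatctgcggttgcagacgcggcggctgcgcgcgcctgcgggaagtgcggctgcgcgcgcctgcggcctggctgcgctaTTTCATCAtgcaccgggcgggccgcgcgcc
Tars: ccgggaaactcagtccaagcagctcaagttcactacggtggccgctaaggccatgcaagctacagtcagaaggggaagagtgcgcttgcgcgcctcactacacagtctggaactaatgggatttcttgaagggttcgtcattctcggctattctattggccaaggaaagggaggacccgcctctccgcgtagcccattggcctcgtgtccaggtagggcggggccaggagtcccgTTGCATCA
A match of these letters is a description of the sequence and was not tested as a binding site.

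The libraries hold about 15000000 to 21500000 fragments by a rough estimate from the steps between low FPKM values, and between 15577 and 24820 genes above 0, with MFN1-KD replicate 3 lowest in both. *Mfn1* was at 51.57, 22.55 and 23.77 FPKM in control and at 9.54, 4.4 and 1.15 in MFN1-KD (log2 fold change -2.66, adjusted p = 0.0431). This call was lost under 10 of 18 alternatives, among them the removal of control 1, 2 or 3, H3.3-KD 1 or 2 or MFN1-KD 2 or 3 (adjusted p from 0.0531 to 0.152). *H3f3a* and *H3f3b* had log2 fold changes of -3.69 and -3.64 in H3.3-KD. The 8-cell label was checked against 7 embryo markers, of which 7 were above 1 FPKM in every control and H3.3-KD library and 6 in every MFN1-KD library, *Pou5f1* being at 0.30 in MFN1-KD replicate 3. Their sums, mostly *Dppa3*, did not overlap, at 11859 to 15301 FPKM in control, 17025 to 21460 in MFN1-KD and 7471 to 9466 in H3.3-KD, while *Pou5f1* was at 5.1 to 8.9 FPKM in control and at 63.06 to 392.19 in H3.3-KD. The part of these marker differences in the results was not tested. The summed level of 8 cumulus and granulosa markers was 16.1 to 29.8 FPKM in control, 10.3 to 19.9 in MFN1-KD and 38.3 to 67.4 in H3.3-KD, nearly all of it *Amhr2*, and *Fshr* was at 0 in all 9 libraries. Oocyte markers summed to 18.4 to 25.4 FPKM in control, 18.3 to 36.7 in MFN1-KD and 20.9 to 37.1 in H3.3-KD, and blood and fibroblast markers, mainly *Hba-a1*, to 77.9 to 96.7, 18.3 to 77.9 and 9.31 to 14.7. In pooled embryos fewer cells and less RNA per cell cannot be told apart.

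In control embryos the cytosolic synthetases were expressed at higher levels than the mitochondrial ones. FPKM is a value per length, so levels can be set side by side. The median of the 20 cytosolic control means was 34.5 FPKM (range 2.43 to 156), and that of the 16 mitochondrial means was 3.96 FPKM (range 0.187 to 21.8). A control mean above 10 FPKM was found for 17 cytosolic and 5 mitochondrial genes, and a mean below 5 FPKM for 1 cytosolic and 9 mitochondrial genes.

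The arginine enzyme gene *Rars* was highest, at 175.47, 143.55 and 147.52 FPKM in the 3 control libraries. *Qars*, for glutamine, followed at 149.36, 98.06 and 78.95 FPKM, and *Nars*, for asparagine, at 91.29, 80.51 and 85.00. Their ranges touched those of their neighbours in the order, so these genes cannot be ranked beyond the spread. The lowest cytosolic genes were *Vars* (valine) at 3.81, 2.49 and 0.98 FPKM, *Wars* (tryptophan) at 11.31, 8.28 and 6.81 and *Aars* (alanine) at 13.51, 9.94 and 6.34. *Vars* lay below every control value of the other 19 cytosolic genes.

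Among mitochondrial genes *Cars2* (cysteine) was highest, at 26.00, 21.21 and 18.11 FPKM, followed by *Lars2* (leucine) at 30.40, 11.62 and 10.59 and *Rars2* (arginine) at 18.98, 15.19 and 13.46. These 3 overlapped one another. The lowest were *Pars2* (proline) at 0.83, 1.02 and 0.08 FPKM, *Vars2* (valine) at 1.04, 0.31 and 0.13 and *Aars2* (alanine) at 0.15, 0.26 and 0.15. Over the order of all 36 genes by control mean, a gene and the next one down did not overlap at only 3 places, after *Kars*, after *Hars* and after *Sars2*.

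**Figure D1:**
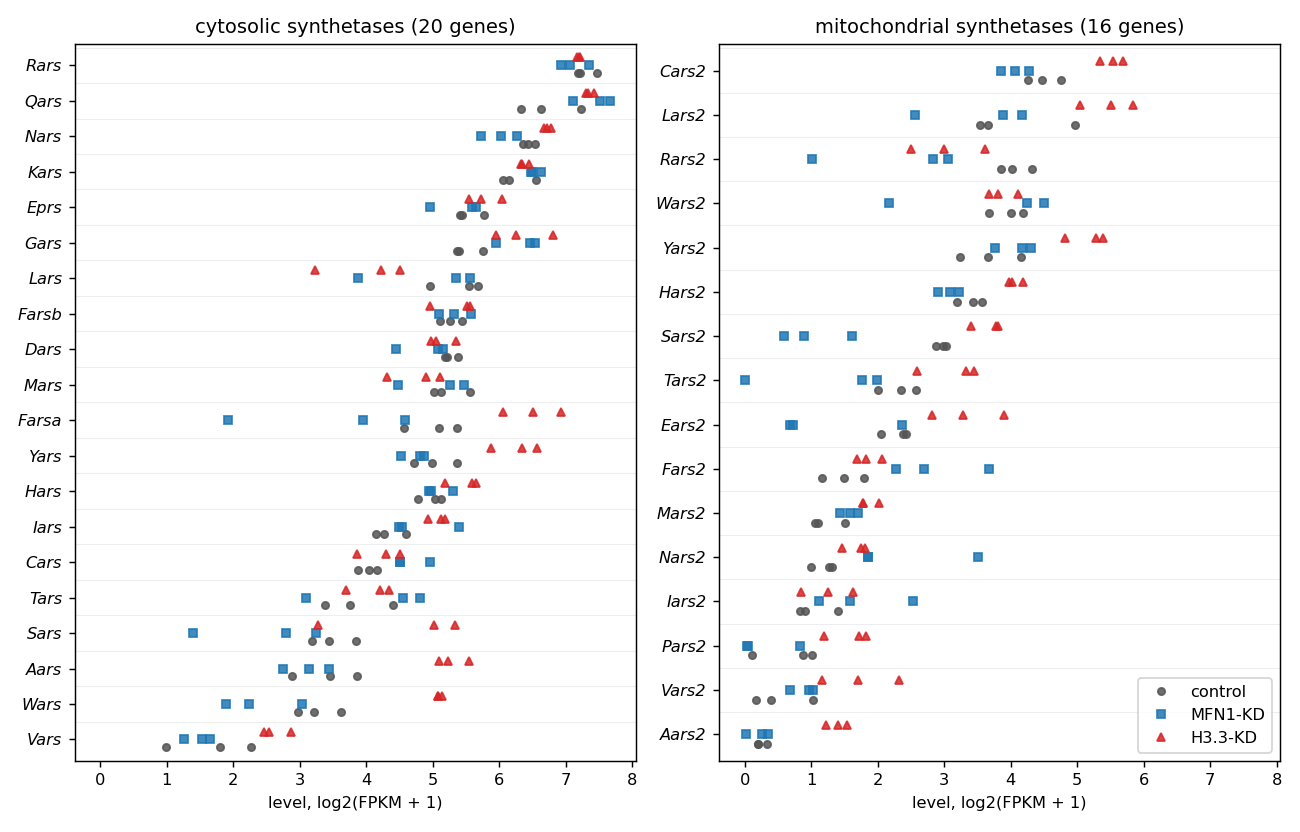
Level of each synthetase gene, as log2(FPKM + 1), in the 3 control (circles), 3 MFN1-KD (squares) and 3 H3.3-KD (triangles) libraries, with genes ordered by control mean within each class. Most cytosolic genes lie to the right of most mitochondrial genes, and *Aars*, *Wars*, *Yars* and *Cars2* show H3.3-KD points apart from control points, with *Sars2* MFN1-KD points to the left of control.

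In H3.3-KD embryos 7 synthetase genes were called higher and 1 lower, and both classes had higher members. The cytosolic *Aars*, *Wars*, *Yars* and *Gars* and the mitochondrial *Cars2*, *Yars2* and *Vars2* were higher than in control, and the cytosolic leucine enzyme gene *Lars* was lower. The calls are by limma-trend on log2(FPKM + 1), fitted over 13011 genes, at a Benjamini-Hochberg adjusted p under 0.05. They make up 23.5% of the 34 genes tested, and 31.0% of all genes tested were called in this comparison (21.8% higher and 9.12% lower), so the synthetases were not called at a higher rate than genes at large. The largest differences in both directions lay among cytosolic genes. *Vars2* entered the test only through its H3.3-KD libraries, the group where it is high, so its call gives no support to the count. The count of 8 calls was 5 without control 2, 4 without control 3 and 13 without MFN1-KD 3.

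*Aars*, whose product charges alanine, was at 13.51, 9.94 and 6.34 FPKM in control and at 36.40, 45.50 and 33.26 in H3.3-KD. The groups did not overlap, and the log2 fold change was 1.89 (SE 0.33, adjusted p = 0.00217). GENCODE M21 assigns 15.1% of the exon bases of *Aars* to *Exosc6* or *Gm24103* as well, and how shared reads were counted is not given in the sources used here.

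*Wars*, for tryptophan, was at 11.31, 8.28 and 6.81 FPKM in control and at 32.78, 32.89 and 34.20 in H3.3-KD, where the 3 libraries were nearly alike. Its log2 fold change was 1.83 (SE 0.34, adjusted p = 0.0032). *Yars*, for tyrosine, was at 40.01, 30.62 and 25.40 FPKM in control and at 94.07, 80.22 and 57.85 in H3.3-KD, also without overlap, with a log2 fold change of 1.24 (SE 0.27, adjusted p = 0.00669).

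*Gars*, which supplies glycine-tRNA ligase to both compartments, was at 52.67, 41.03 and 40.03 FPKM in control and at 111.11, 60.92 and 75.12 in H3.3-KD. The groups did not overlap and the log2 fold change was 0.84 (SE 0.28, adjusted p = 0.0441). The call was close to the threshold, and it was kept under 8 of 18 alternatives. It was lost without control 1, 2 or 3 or H3.3-KD 1 or 3 (adjusted p from 0.0509 to 0.154).

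Of the mitochondrial genes, *Yars2* (tyrosine) was at 16.91, 11.64 and 8.41 FPKM in control and at 38.04, 27.09 and 40.78 in H3.3-KD. It had the largest rise of its class, with a log2 fold change of 1.48 (SE 0.32, adjusted p = 0.00611). *Cars2* (cysteine) was at 26.00, 21.21 and 18.11 FPKM in control and at 50.83, 39.68 and 45.38 in H3.3-KD, with a log2 fold change of 1.03 (SE 0.25, adjusted p = 0.0115). The call of *Cars2* was lost without control 3 (adjusted p = 0.0558). *Vars2* (valine) was at 1.04, 0.31 and 0.13 FPKM in control and at 1.24, 4 and 2.25 in H3.3-KD, a log2 difference of 1.20 that is given as a description. All of these *Vars2* values are low, the highest control and the lowest H3.3-KD library are close to each other, and the call was kept under 5 of 16 alternatives. Leaving out control 2 or 3, H3.3-KD 3 or MFN1-KD 1 or 2 ended it.

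The 2 mitochondrial genes that were not tested were also without overlap. *Aars2* was at 0.15, 0.26 and 0.15 FPKM in control and at 1.66, 1.90 and 1.33 in H3.3-KD, and *Pars2* at 0.83, 1.02 and 0.08 in control and at 2.29, 2.55 and 1.28 in H3.3-KD.

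*Lars*, the cytosolic leucine enzyme gene, was at 50.19, 45.38 and 30.11 FPKM in control and at 17.60, 21.66 and 8.41 in H3.3-KD. It was lower in every H3.3-KD library, with a log2 fold change of -1.41 (SE 0.48, adjusted p = 0.0472). The call was lost without control 1, 2 or 3, H3.3-KD 1 or 3 or MFN1-KD 1 (adjusted p from 0.0527 to 0.157). Its mitochondrial counterpart *Lars2* was at 30.40, 11.62 and 10.59 FPKM in control and at 31.90, 44.46 and 56.36 in H3.3-KD, and its difference of 1.41 did not pass (log2 scale, adjusted p = 0.0533).

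The other 26 genes tested did not pass in H3.3-KD. Groups did not overlap for 20 tested genes that were higher and 2 that were lower (*Lars* and *Rars2*), where 34.5% and 18.9% of all genes did so. At the threshold of the study, more than 2-fold with an unadjusted p under 0.05, 8 genes were higher and 1 lower, against 23.9% and 9.39% of all genes. *Vars2* is among the 20 and the 8 but entered the test only through its H3.3-KD libraries, so it gives no support to these counts. Among the genes that did not pass, *Farsa* (phenylalanine) had the largest difference, from 40.34, 33.09 and 22.72 FPKM to 120.22, 90.27 and 65.10 (1.48 on the log2 scale, adjusted p = 0.0777).

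The multisynthetase complex gave 1 call among its 8 enzymes in H3.3-KD, that of *Lars*. Its other members had log2 fold changes of 0.74 for *Iars*, 0.62 for *Qars*, 0.23 for *Eprs*, 0.12 for *Kars*, -0.09 for *Rars*, -0.14 for *Dars* and -0.46 for *Mars*, with adjusted p from 0.0828 to 0.761. *Qars* was at 149.36, 98.06 and 78.95 FPKM in control and at 170.93, 160.61 and 156.19 in H3.3-KD, and *Iars* at 23.09, 18.21 and 16.73 and at 29.38, 35.16 and 33.83, both without overlap. *Rars* stayed between 142.78 and 175.47 FPKM over the 6 libraries, and the groups overlapped. The lysine enzyme gene *Kars* was at 92.95, 69.41 and 65.71 FPKM in control and at 79.62, 86.09 and 78.9 in H3.3-KD, and the glutamate and proline gene *Eprs* at 53.54, 42.35 and 41.5 and at 64.81, 51.79 and 45.44. *Mars*, for methionine, was at 46.13, 33.7 and 31.25 FPKM in control and at 33.35, 28.66 and 18.83 in H3.3-KD, and *Dars*, for aspartate, at 40.46, 35.96 and 35.31 and at 39.54, 30.25 and 31.92. Control and H3.3-KD libraries overlapped for each of these 4 genes. Median log2 fold changes were 0.01 for the 8 complex enzymes and 0.26 for all genes tested.

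The cytosolic genes known to respond to ATF4 in stressed cells (13) held all 5 cytosolic calls, 4 higher (*Aars*, *Gars*, *Wars* and *Yars*) and 1 lower (*Lars*), or 38.5% of the 13 beside 31.0% of all genes. The 7 other cytosolic genes had 0 calls by limma-trend, with 2 higher and 0 lower at an unadjusted p under 0.05, a threshold that 28.9% of all genes passed upward. Relative to the median of all genes, the median log2 fold change was 0.48 for the 13 and -0.15 for the 7. With the trend over GC content and length removed these medians were 0.12 and -0.07. The 13 then had 2 higher and 2 lower, where 3047 of 12803 genes were called in either direction. By catalytic fold, the class I enzymes (18 genes) had 5 higher and 1 lower, which is 33.3% beside the 31.0% of all genes. *Vars2* is among the 5 but entered the test only through its H3.3-KD libraries, so it gives no support to this count. The class I median relative to all genes was 0.42, or -0.04 with the trend removed. The class II enzymes (17 genes, 15 tested) had 2 higher and 0 lower (13.3%) and a relative median of 0.23, or 0.05 with the trend removed, with 4 higher and 0 lower at an unadjusted p under 0.05.

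Median log2 fold changes relative to all genes were 0.13 for the cytosolic and 0.42 for the mitochondrial class in H3.3-KD. The latter includes *Vars2*, which entered the test only through its H3.3-KD libraries. The cytosolic median level minus that of all genes went the other way, from 2.26 ± 0.14 in control to 2.04 ± 0.21 in H3.3-KD (SD, n = 3). The mitochondrial one went from -0.57 ± 0.07 to -0.41 ± 0.33, and the libraries overlapped in both classes. The median of all genes tested was itself 0.26, and it moved to 0.00 with median-ratio and to -0.07 with upper-quartile scaling. The split of synthetase calls was 5 higher and 1 lower with the first and 4 higher and 2 lower with the second. Over all 13011 genes tested, 3866 and 3856 were called under these scalings.

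The GC content of the transcripts moved with these differences. Over the 34 genes, Spearman's rho of the H3.3-KD log2 fold change with GC content was 0.51, and over 12803 genes it was 0.34. These are descriptions across genes measured in the same libraries. The 7 genes called higher had a median GC content of 52.8% and the other 27 a median of 47.7%. When the trend of every library over GC content and length was removed, *Aars* (0.92, adjusted p = 0.0267), *Wars* (0.94, adjusted p = 0.0274), *Yars2* (1.02, adjusted p = 0.0234) and *Lars* (-1.89, adjusted p = 0.013) were still called. *Yars* (0.39, adjusted p = 0.292), *Gars* (0.25, adjusted p = 0.568), *Cars2* (0.43, adjusted p = 0.17) and *Vars2* (-0.04) were not, and *Mars2* (0.89, adjusted p = 0.0335) and *Mars* (-1.37, adjusted p = 0.0118) then passed. The class medians relative to all genes became -0.06 for the cytosolic and 0.11 for the mitochondrial genes. The summed cumulus and granulosa markers, nearly all of it *Amhr2*, were also higher in every H3.3-KD library than in any control library. The log2 fold change of *Amhr2* was 1.11, and 0.02 (adjusted p = 0.967) with the trend removed. The part of these markers in the synthetase differences was not tested.

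**Figure D2:**
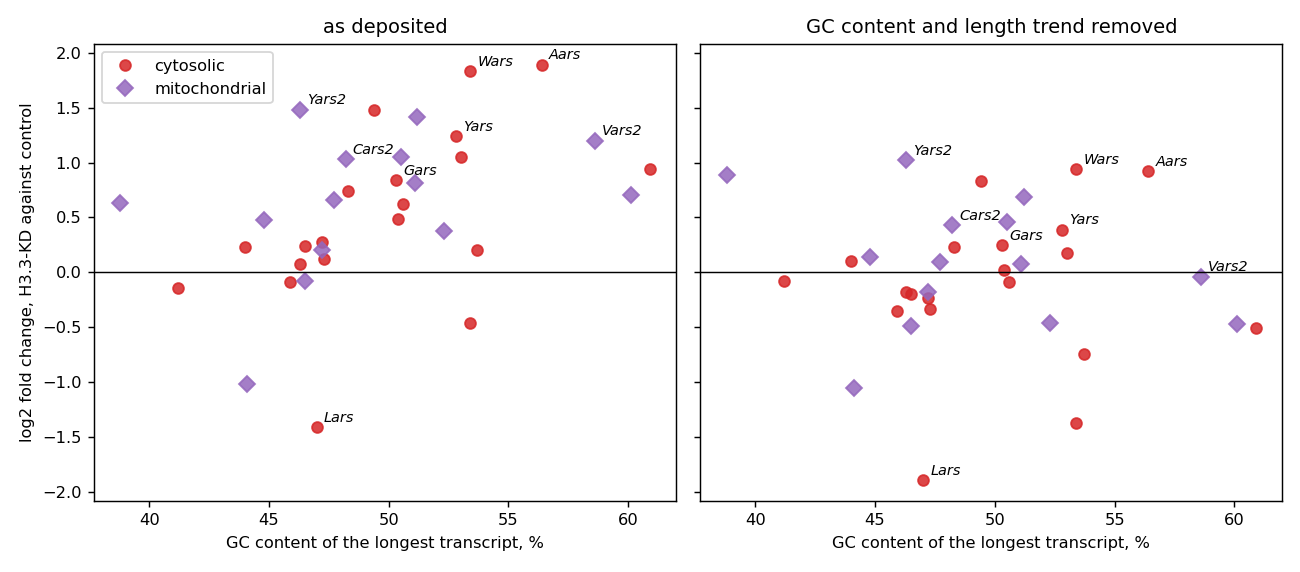
H3.3-KD against control log2 fold change of each tested synthetase gene (vertical axis) against the GC content of its longest transcript in percent (horizontal axis), on the deposited values (left) and with the trend of every library over GC content and length removed (right). Circles are cytosolic and diamonds mitochondrial genes. From left to right *Aars* goes from 1.89 to 0.92, *Wars* from 1.83 to 0.94, *Yars2* from 1.48 to 1.02 and *Vars2* from 1.20 to -0.04.

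In MFN1-KD embryos 1 synthetase gene changed, the mitochondrial serine enzyme gene *Sars2*. It was at 6.93, 7.18 and 6.34 FPKM in control and at 0.86, 2.05 and 0.50 in MFN1-KD. All MFN1-KD libraries were far below all control libraries, and the log2 fold change was -1.94 (SE 0.34, adjusted p = 0.0333). Over all genes 3.35% were called in this comparison (1.15% higher and 2.20% lower), and 2.9% of the synthetases. The call of *Sars2* was kept under 9 of 17 alternatives, and it was lost without control 1, 2 or 3 or H3.3-KD 1 or 2 (adjusted p from 0.0504 to 0.145). With the trend over GC content and length removed it was kept (-1.49, adjusted p = 0.037).

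Of the cytosolic genes 0 passed in MFN1-KD by limma-trend, with 3 higher and 2 lower at an unadjusted p under 0.05, and among mitochondrial genes 2 were higher and 2 lower at that threshold. Over all genes 9.21% were higher and 14.0% lower by the unadjusted p. At the threshold of the study 2 synthetase genes were higher and 3 lower, against 5.02% and 9.05% of all genes. Groups did not overlap for 4 higher and 5 lower genes, against 11.4% and 16.8% of all genes.

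*Rars2*, for mitochondrial arginine, was at 18.98, 15.19 and 13.46 FPKM in control and at 7.29, 6.16 and 1.02 in MFN1-KD. Its log2 fold change of -1.76 had an adjusted p of 0.0867, although the groups did not overlap. *Fars2*, for mitochondrial phenylalanine, was at 1.23, 2.48 and 1.82 FPKM in control and at 3.83, 5.47 and 11.72 in MFN1-KD (1.39, adjusted p = 0.0811). *Fars2* shares 10.7% of its exon bases with genes on the opposite strand, *Lyrm4* and *Nrn1*. *Nars2* was at 1.42, 1.49 and 0.99 FPKM in control and at 2.61, 2.61 and 10.42 in MFN1-KD (1.21, adjusted p = 0.147). *Farsa* was at 40.34, 33.09 and 22.72 FPKM in control and at 14.41, 22.88 and 2.78 in MFN1-KD, with overlap (-1.53, adjusted p = 0.154). In each of these 4 genes the MFN1-KD value furthest from control was that of replicate 3, the library with the fewest genes above 0.

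The multisynthetase enzymes had 0 calls in MFN1-KD, with 1 higher and 0 lower at an unadjusted p under 0.05. That gene was *Qars*, at 201.95, 181.82 and 137.23 FPKM, above the control mean of 108.8 ± 36.4 FPKM (SD, n = 3) but overlapping the control libraries (0.70, adjusted p = 0.147). The 7 others had log2 fold changes from -0.46 (*Lars*) to 0.47 (*Iars*). In MFN1-KD *Rars* was at 132.06, 161.2 and 120.38 FPKM, *Kars* at 97.4, 87.67 and 88.93, *Eprs* at 46.99, 49.16 and 30.13 and *Lars* at 39.83, 46.25 and 13.68. *Mars* was at 21.24, 43.22 and 37.21 FPKM, *Dars* at 20.88, 34.45 and 32.76 and *Iars* at 21.42, 22.1 and 40.89. Only *Dars* lay below all control libraries, and its difference was -0.36 on the log2 scale (adjusted p = 0.437). The class medians relative to all genes were -0.09 for cytosolic and -0.24 for mitochondrial genes, and the latter turned to 0.21 with library weights.

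**Figure D3:**
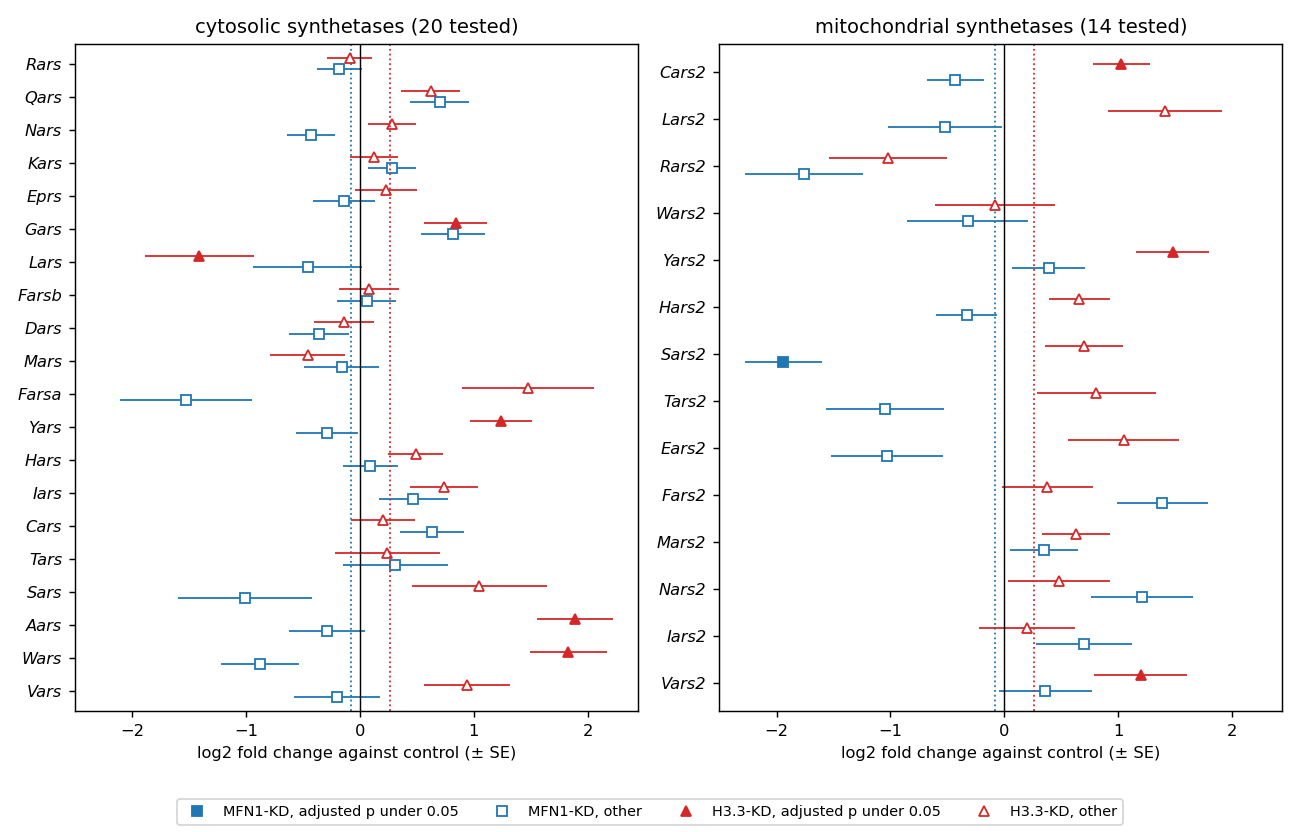
Log2 fold change against control with its standard error for each tested synthetase gene, cytosolic at the left and mitochondrial at the right, for MFN1-KD (squares) and H3.3-KD (triangles). Filled symbols passed an adjusted p of 0.05, and dotted lines mark the median of all genes, -0.08 for MFN1-KD and 0.26 for H3.3-KD. One MFN1-KD symbol (*Sars2*) and 8 H3.3-KD symbols are filled.

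Because both knockdowns were compared with the same control libraries, they were also compared directly. Of the 34 genes 14 were lower in MFN1-KD than in H3.3-KD and 0 were higher, with 1 higher and 14 lower at an unadjusted p under 0.05 (14.5% and 33.7% of all genes). The 14 were 7 cytosolic genes (*Aars*, *Farsa*, *Nars*, *Sars*, *Vars*, *Wars* and *Yars*) and 7 mitochondrial ones (*Cars2*, *Ears2*, *Hars2*, *Lars2*, *Sars2*, *Tars2* and *Yars2*). They are 41.2% of the synthetases tested, and of all genes 38.6% were called (11.0% higher and 27.6% lower). The median of all genes was -0.39, and relative to it the class medians were 0.14 for cytosolic and -0.52 for mitochondrial genes.

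*Farsa* differed most, at 14.41, 22.88 and 2.78 FPKM in MFN1-KD and 120.22, 90.27 and 65.10 in H3.3-KD (log2 fold change -3.01, SE 0.58, adjusted p = 0.00272). *Wars* was at 3.70, 7.21 and 2.69 FPKM against 32.78, 32.89 and 34.20 (-2.71, SE 0.34, adjusted p = 0.000277), and *Sars2* at 0.86, 2.05 and 0.50 against 12.72, 12.96 and 9.62 (-2.63, SE 0.34, adjusted p = 0.000308). The H3.3-KD libraries were above all MFN1-KD libraries in each of the 3. *Aars* (-2.18, adjusted p = 0.000692) and *Cars2* (-1.46, adjusted p = 0.00145) followed the same order. *Yars* had a difference of -1.53 (adjusted p = 0.00164) and *Ears2*, for mitochondrial glutamate, one of -2.07 (adjusted p = 0.00748).

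The direction of the smaller differences depended on the scaling. Median-ratio scaling gave 3 higher and 10 lower (4842 of all 13011 genes called), and upper-quartile scaling 4 higher and 10 lower (4858 of 13011). Removal of the trend over GC content and length gave 7 higher and 6 lower (3605 of 12803 genes called). Under the latter *Aars* (-1.22), *Wars* (-1.60), *Farsa* (-2.30), *Sars2* (-1.02) and *Cars2* (-0.83) were still lower, *Mars2* (-1.10) was added, and *Cars*, *Gars*, *Kars*, *Lars*, *Mars*, *Qars* and *Fars2* were higher, by 0.77 (*Kars*) to 1.98 (*Fars2*). *Vars* turned from -1.14 to 0.34 (adjusted p = 0.473). The count of calls was 9 without H3.3-KD 1, with 0 higher. *Sars*, *Nars* and *Yars2* kept the call under 12, 12 and 11 of 18 alternatives and *Vars* under 5 of 17. *Vars* lost it without control 2, H3.3-KD 1, 2 or 3 or MFN1-KD 1 or 2 (adjusted p from 0.0561 to 0.117), *Sars* without H3.3-KD 1 or 2 or MFN1-KD 3, *Nars* without H3.3-KD 1 or 2, *Yars2* without H3.3-KD 1 or 3 or MFN1-KD 3 and *Tars2* without H3.3-KD 1 or 2 (adjusted p from 0.0506 to 0.0788).

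The balance of the classes was also compared within each library. The median log2(FPKM + 1) of cytosolic genes exceeded that of mitochondrial genes by 2.82 ± 0.13 (SD, n = 3) in control, by 2.87 ± 0.23 in MFN1-KD and by 2.45 ± 0.11 in H3.3-KD. The H3.3-KD libraries, at 2.38 to 2.58, were below every control library, at 2.67 to 2.93, and every MFN1-KD library, at 2.73 to 3.13. With the trend over GC content and length removed, the H3.3-KD and control differences were 2.27 and 2.31. These values leave out *Aars2* and *Pars2*, which were not tested, so they differ from those above in the set of genes as well. No p is given, because 3 libraries against 3 cannot give an exact permutation p under 0.10 and the members were chosen with results known. The summed level of the mitochondrial genes was 198 to 219 FPKM in H3.3-KD, 96 to 143 in control and 77 to 106 in MFN1-KD, so that only H3.3-KD stood apart from control. The cytosolic sums were 990 to 1249 FPKM in H3.3-KD and overlapped the 730 to 1002 of control.

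**Figure D4:**
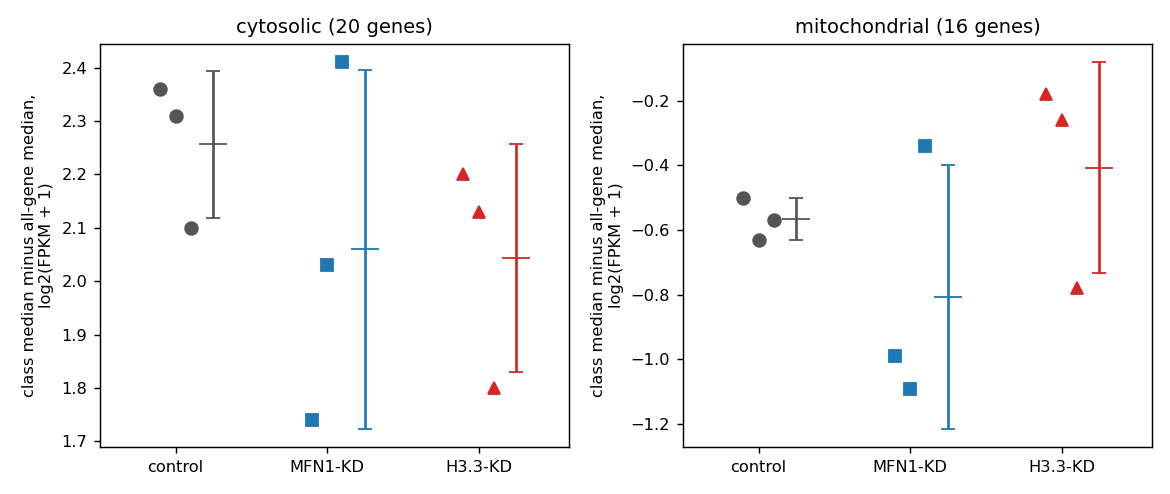
Median log2(FPKM + 1) of the cytosolic (left) and mitochondrial (right) synthetase genes minus the median of all genes tested in the same library, for 3 libraries in each group, with the mean and SD beside them. The groups overlap in both panels, control lying at 2.10 to 2.36 for cytosolic and at -0.63 to -0.50 for mitochondrial genes.

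For 14 amino acids a cytosolic gene could be paired with the mitochondrial gene for the same amino acid (*Farsa* with *Fars2* for phenylalanine). The cytosolic gene was higher in 12 of 14 pairs in every control library, and the exceptions were cysteine, where *Cars2* exceeded *Cars*, and tryptophan, where *Wars2* exceeded *Wars*. By group means the cytosolic gene was higher in 13 pairs of the MFN1-KD embryos and 12 of the H3.3-KD embryos. The median over the pairs was 1.44 ± 0.16 in H3.3-KD, 1.67 ± 0.23 in control and 1.82 ± 0.07 in MFN1-KD (SD, n = 3, log2 scale).

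The leucine pair was inverted in H3.3-KD. *Lars* minus *Lars2* on the log2(FPKM + 1) scale was 0.71, 1.88 and 1.42 in control and -0.82, -1 and -2.61 in H3.3-KD, a difference of -2.82. The tryptophan pair was inverted the other way, from -0.38, -0.46 and -1.22 in control to 1.27, 0.97 and 1.46 in H3.3-KD, a difference of 1.92 in which *Wars* rose and *Wars2* had a log2 fold change of -0.08. Neither pair overlapped between the groups, whose pair differences were described and not tested.

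In MFN1-KD the phenylalanine pair moved most. *Farsa* minus *Fars2* was 4.21, 3.29 and 3.07 in control and 1.67, 1.88 and -1.75 in MFN1-KD. The arginine pair widened from 3.14, 3.16 and 3.36 to 4, 4.5 and 5.91, and the cysteine pair changed sign, from -0.72, -0.32 and -0.38 to 0.44, 0.68 and 0.64. Over all 14 pairs the groups did not overlap in 8 for MFN1-KD (3 higher and 5 lower) and in 7 for H3.3-KD (3 higher and 4 lower). For single genes, 11.4% of all genes were higher and 16.8% lower without overlap in MFN1-KD, and 34.5% and 18.9% in H3.3-KD. The share among other pairs of genes was not computed, so these counts are descriptions only.

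**Figure D5:**
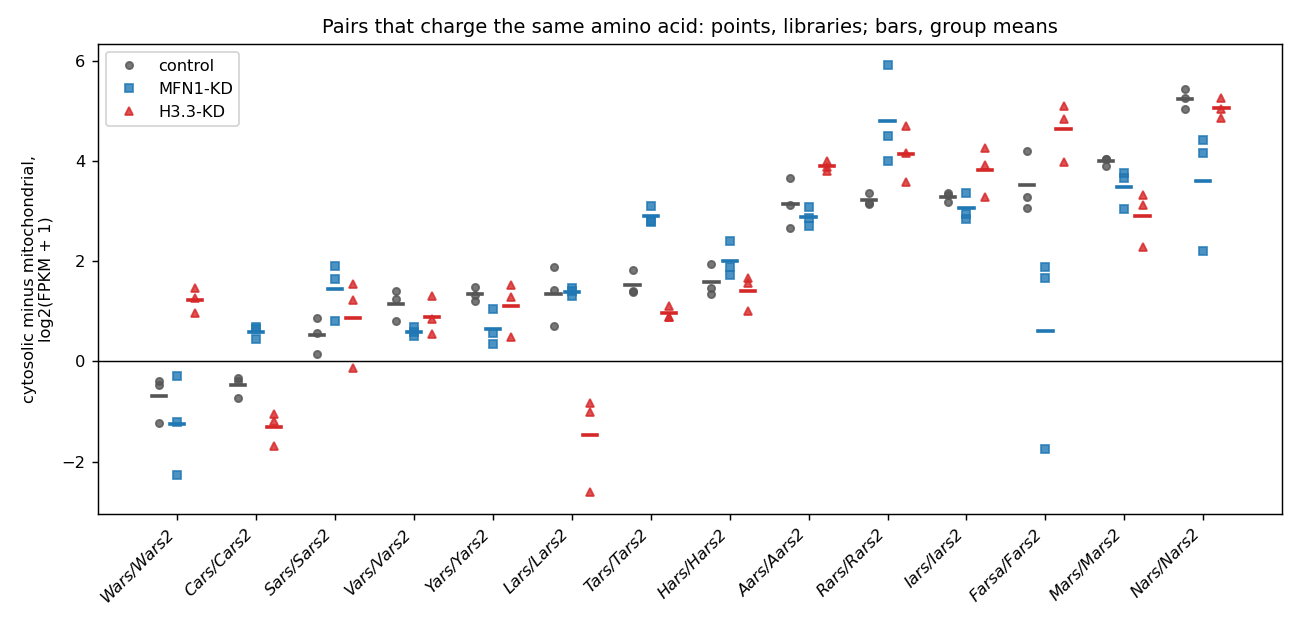
Cytosolic minus mitochondrial level, in log2(FPKM + 1), for the 14 pairs of genes that charge the same amino acid, with points for libraries and bars for group means. Values above 0 mean a higher cytosolic gene. *Lars/Lars2* in H3.3-KD lies at -2.61 to -0.82 and *Wars/Wars2* in H3.3-KD at 0.97 to 1.46, both across 0 from control.

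Aminoacylation also needs the scaffolds, proofreading factors and transfer RNA processing enzymes. Of 17 such partner genes 1 rose and 2 fell in H3.3-KD, which is 17.6% beside the 31.0% of all genes. *Elac2*, which trims the end of transfer RNA precursors, was at 16.61, 12 and 9.54 FPKM in control and at 34.98, 37.54 and 40.34 in H3.3-KD (1.52, adjusted p = 0.00498, and 0.53, adjusted p = 0.157, with the trend over GC content and length removed). *Eef1e1*, a scaffold of the multisynthetase complex, was at 276.60, 402.09 and 359.08 FPKM in control and at 188.03, 151.63 and 146.78 in H3.3-KD (-1.08, adjusted p = 0.00944). *Ptrh2*, a peptidyl-tRNA hydrolase, was at 45.28, 53.00 and 63.40 FPKM in control and at 21.95, 20.02 and 22.42 in H3.3-KD (-1.28, adjusted p = 0.00535). None of the 3 overlapped, and the calls of *Eef1e1* and *Ptrh2* were kept under 18 of 18 alternatives. In MFN1-KD 1 partner fell (5.9%, beside 3.35% of all genes), *Dtd1*, which removes D-amino acids from transfer RNA. At an unadjusted p under 0.05, 0 partners were higher and 5 lower there (9.21% and 14.0% of all genes). *Dtd1* went from 19.47, 16.30 and 19.68 FPKM to 2.52, 5.55 and 4.01 (-2, adjusted p = 0.0343), a call lost without control 1, 2 or 3, H3.3-KD 2 or MFN1-KD 1 (adjusted p from 0.0526 to 0.152) and with the trend removed (-1.5, adjusted p = 0.0659). In the direct comparison 3 partners (17.6%) were lower in MFN1-KD than in H3.3-KD and 0 higher, beside 27.6% and 11.0% of all genes. At an unadjusted p under 0.05, 1 was higher and 6 lower there (14.5% and 33.7% of all genes).

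Genes of the wider ATF4 response to amino acid shortage were read beside the synthetases. Of 17 listed genes 12 were tested, and in H3.3-KD 5 rose and 0 fell (41.7%, beside 31.0% of all genes). At an unadjusted p under 0.05, 8 were higher and 0 lower, beside 28.9% and 13.2% of all genes. With the trend over GC content and length removed 4 rose and 0 fell, where 3047 of 12803 genes were called in either direction. *Cebpb* is among the 5, the 8 and the 4 but entered the test only through its H3.3-KD libraries, so it gives no support to these counts. *Sesn2*, an inhibitor of mTORC1 signalling, was at 4.54, 1.05 and 1.15 FPKM in control and at 71.30, 115.01 and 133.75 in H3.3-KD (5.17, adjusted p = 0.000203). *Cebpb*, a transcription factor that pairs with ATF4, was at 0.23, 0.40 and 0.41 FPKM in control and at 26.08, 21.46 and 39.19 in H3.3-KD. This is given as a description because of the filter, with a log2 difference of 4.43 (2.86 with the trend removed). The *Sesn2* difference was 3.84 (adjusted p = 0.000629) with the trend removed.

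*Slc7a5*, which imports large neutral amino acids, had a log2 fold change of 3.26 (adjusted p = 0.000613). *Phgdh*, the first enzyme of serine synthesis, had one of 2.36 (adjusted p = 0.000428), and *Trib3*, an inhibitor of ATF4 activity, one of 1.65 (adjusted p = 0.025). *Trib3* lost the call without control 1, 2 or 3 or H3.3-KD 2 or 3 (adjusted p from 0.0516 to 0.0913). With the trend over GC content and length removed, *Slc7a5* was at 2.12 (adjusted p = 0.00396), *Phgdh* at 1.41 (adjusted p = 0.00657) and *Trib3* at 0.57, which did not pass (adjusted p = 0.326). *Atf4* was at 74.02, 69.78 and 57.13 FPKM in control and at 108.70, 99.74 and 105.59 in H3.3-KD, without overlap, and did not pass (0.64, adjusted p = 0.0592). With the trend removed, the log2 fold change of *Atf4* was -0.21 (adjusted p = 0.524). ATF4 is regulated mainly at translation, which RNA levels do not show.

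In MFN1-KD 1 gene of this list fell, *Phgdh*, from 42.24, 23.92 and 22.39 FPKM to 7.99, 10.91 and 9.32 (-1.50, adjusted p = 0.0359), a call lost without control 1, 2 or 3, H3.3-KD 1 or 2 or MFN1-KD 1 (adjusted p from 0.0543 to 0.138) and with the trend removed (-1.05, adjusted p = 0.0743). *Atf4* was at 53.59, 36.59 and 34.95 FPKM there (-0.69, adjusted p = 0.119). In the direct comparison 9 of the 12 (75.0%) were lower in MFN1-KD than in H3.3-KD, beside 27.6% of all genes. With the trend removed 1 was higher and 4 lower, where 3605 of 12803 genes were called in either direction. *Cebpb* is among the 9 and the 4 but entered the test only through its H3.3-KD libraries, so it gives no support to these counts. *Atf4* was among the 9 (-1.33, adjusted p = 0.00156) and had a difference of -0.04 (adjusted p = 0.918) with the trend removed. The composite element was found in the promoters of 5 of the 16 matched genes of this list (31.2%, beside 3.91% of all genes). They were *Asns*, *Atf3*, *Chac1*, *Pycr1* and *Slc7a11*, and none of them was called against control in either knockdown. *Atf3*, *Pycr1* and *Slc7a11* were not tested. Of the genes called in H3.3-KD, *Sesn2*, *Cebpb*, *Phgdh* and *Trib3* lacked the element, and *Slc7a5* had no matched promoter.

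Reads of 13 of the 36 synthetase genes can be shared with another gene, since some of their exon bases are annotated to both, and the strand setting of the counting is not given in the sources used here. The share was above 10% of the exon bases in 3 genes, *Aars* (15.1%), *Fars2* (10.7%) and *Iars2* (24.2%). *Hars* and *Hars2* lie head to head and share 195 bases, 8.0% of *Hars* and 4.6% of *Hars2*.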

How the data were processed

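The 9 libraries hold FPKM for every gene, deposited by the authors as 1 file per library and rounded to 2 decimals. Per the labels and methods, libraries were made by Smart-Seq2 from oligo-dT primed RNA, reads were trimmed with cutadapt 1.16 and mapped to mm10 with STAR, and the authors tested genes with Deseq2. The program behind FPKM and the annotation release are not given in the sources used here. Since FPKM are not counts, no count test was run, and no counting interval is given.

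FPKM were transformed as log2(FPKM + 1), which understates changes of low genes. The 13011 genes that averaged 1 FPKM or more were fitted with limma 3.58.1 (trend and robust options, no covariate) in R 4.3.3, all 3 groups in 1 model. A gene was called at a Benjamini-Hochberg adjusted p under 0.05 over all genes tested. GC content, length and exons came from GENCODE M21 and were found for 12803 of the genes tested (98.4%), and promoters from RefSeq, of which 1 is not reported here. The fit was tested on simulated data. Tables and plots used pandas 2.3.3 and matplotlib 3.10.9 under Python 3.11.15.

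The synthetase genes and the other lists were chosen with earlier results of these data known. Values are given in full for called synthetases, for the 3 highest and 3 lowest of each class in control, for the multisynthetase enzymes, and for called genes of the related lists with *Atf4*. *Lars2*, *Farsa*, *Rars2*, *Fars2* and *Nars2* were added after their values were seen. Alternatives were upper-quartile and median-ratio scaling, the omission of the filter or its rise to 10 FPKM, a pseudocount of 0.1, the 6 libraries compared alone, the replicate number as a block, library weights, subtraction of the trend of every library over GC content and length (splines with 5 degrees of freedom), and each library left out.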

Additional observations from a re-analysis of the deposited data

How the results depend on the processing

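Of 640 values of 36 results, each 1 called gene in 1 comparison, under the alternatives, 519 kept direction and call, 119 kept the direction and lost the call, and 2 reversed with the trend over GC content and length removed (*Vars2* in H3.3-KD to -0.04 and *Vars* in the direct comparison to 0.34). The MFN1-KD count of 1 became 0 with no filter, a filter at 10 FPKM, 6 libraries or the replicate block, 4 with library weights (1 higher, 3 lower), and 0 to 1 with a library left out. The H3.3-KD count of 8 became 13 with 6 libraries, 21 with library weights, and 4 to 13 with a library left out (5 without control 2, 4 without control 3, 13 without MFN1-KD 3). The direct count of 14 became 9 to 15. Replicate numbers did not pair the libraries (correlation of deviations -0.05 to 0.16), and with the number as a block the counts were 0, 7 and 14. Over all genes the block gave 31 calls in place of 436 in MFN1-KD, 3903 in place of 4028 in H3.3-KD and 4861 in place of 5028 directly.

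Class medians relative to all genes moved as follows. In MFN1-KD the mitochondrial median was 0.21 with library weights. In H3.3-KD the cytosolic median was 0.35 with no filter and -0.06 with the trend removed, and the mitochondrial one 0.72 with no filter, 0.86 with a filter at 10 FPKM and 0.11 with the trend removed. Directly they were -0.19 and -0.98 with no filter. With a library left out the ranges were -0.13 to 0.02 (cytosolic) and -0.34 to -0.04 (mitochondrial) in MFN1-KD, 0.10 to 0.28 and 0.35 to 0.44 in H3.3-KD, and 0.05 to 0.30 and -0.70 to -0.51 directly. The cytosolic minus mitochondrial level was 3.08, 3.19 and 2.61 in control, MFN1-KD and H3.3-KD with a pseudocount of 0.1, 2.31 in control and 2.27 in H3.3-KD with the trend removed, and 1.67, 1.82 and 1.44 over the pairs. The levels with the trend removed leave out *Aars2* and *Pars2*. Causes of these shifts were not tested. Depth is known only roughly, which limits low genes such as *Vars2*, *Aars2* and *Pars2* most.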
